A study of Mus musculus with 12 samples.

Results

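A set of 10 genes of the core circadian clock was followed across 12 RNA libraries of immortalized brown adipocytes: the activators Arntl (also called Bmal1) and Clock, the period genes Per1, Per2 and Per3, the cryptochromes Cry1 and Cry2, the nuclear receptors Nr1d1 (REV-ERB alpha) and Nr1d2 (REV-ERB beta), and the output factor Dbp. They were taken by gene symbol, not by their values, from a table of 48321 mouse genes, and all 10 had enough reads to be among the 11998 genes tested. The cells came from preadipocytes of the interscapular brown fat of 1 newborn wild-type C57BL/6J mouse, immortalized with the SV40 large T antigen. They carried either the empty lentiviral plasmid (vector) or one that makes a truncated, soluble, Flag-tagged Sema4B (tSema4B), with 1 puromycin-selected line for each. After 8 days of differentiation, with insulin and T3 throughout and with dexamethasone, IBMX and rosiglitazone added on days 0 and 2, cells were kept in serum-free medium with 2% BSA and were left unstimulated or given 2 μM norepinephrine (NE) for 6 h. This gives 4 groups of 3 libraries: vector unstimulated, vector NE, tSema4B unstimulated and tSema4B NE. All of them share the T antigen, the differentiation mixture and a single time of collection, so the data hold levels at 1 time and no rhythm.

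The clock runs as a transcriptional loop. ARNTL and CLOCK bind E-box DNA elements together and switch on the period and cryptochrome genes, whose proteins return to block them. In a linked loop the REV-ERB receptors, themselves E-box targets, repress Arntl and Cry1 through ROR elements, and DBP acts on D-box elements, which the E4BP4 protein (gene Nfil3) occupies as a repressor. Brown fat has its own clock, and cAMP and glucocorticoids, the signals raised by adrenergic drive and by the adrenal gland, are known to act on period genes.

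Reads counted on genes ranged from 2000780 to 5409583 per library. In both conditions all 3 vector libraries had more reads than any tSema4B library. Levels are given as read counts divided by the DESeq2 size factor of the library (normalized counts), where 1 read was worth 0.593 to 1.55. Sema4b was at 116797 ± 6692 normalized counts (mean ± SD, n = 3) in vector unstimulated and 281514 ± 31108 in tSema4B unstimulated cells, and at 74266 ± 8219 and 234276 ± 32374 after NE, so it was higher in the tSema4B line but also abundant in the vector line. The adipocyte markers summed to 26774 to 29384 normalized counts in vector unstimulated libraries and 3674 to 5935 in tSema4B unstimulated libraries, and to 38416 to 50510.2 against 5988 to 7082 after NE. All 7 were lower in the tSema4B line in both conditions (limma, adjusted p of 0.05 or less), while 4 and 5 of 6 tested preadipocyte and fibroblast markers were higher. The largest share of the adipocyte sums is that of Fabp4, a fatty acid binding protein, with a mean of 24034 normalized counts in vector unstimulated cells, which rose with NE in both lines. In vector cells Plin1 (-0.97) and Pparg (-0.71) fell with NE, and neither was called in tSema4B cells (-0.64 and -0.44). Cidec, a lipid droplet protein, rose with NE in tSema4B cells (1.16, limma adjusted p = 0.00116) and was not called in vector cells (-0.03), and its responses in the lines were not called different (interaction 1.18, limma adjusted p = 0.143). Of the 7 adipocyte markers, 1 was thus called higher and 2 lower with NE in vector cells, and the calls in tSema4B cells were the 2 rises of Fabp4 and Cidec. Of the preadipocyte markers, Pdgfrb, Dlk1 and Cd34 fell with NE and Ly6a rose, in both lines. The part of these changes in the NE results was not tested. Each difference between the lines below therefore goes with a difference in adipocyte state, and its part in the clock results was not tested. In bulk RNA, fewer cells of a type and less RNA per cell cannot be told apart. Of the brown fat markers, Dio2 was at 0 reads in all 12 libraries, and 2 of the 4 tested were lower in the tSema4B line in both conditions, Ucp1 and Cidea (log2 fold change of Cidea -2.88 and -2.36). Ppargc1a (0.41 and 0.36) and Prdm16 (-1.17 and -0.31) were not called between the lines. Ucp1, the uncoupling protein, was at 9.25 to 15.2 normalized counts in vector unstimulated, 268 to 293 in vector NE and 60.8 to 66.5 in tSema4B NE libraries, and had 0 reads in tSema4B unstimulated libraries. The 6 macrophage markers summed to 13.1 to 21.7 normalized counts in vector unstimulated, 41.7 to 59.6 in vector NE, 17.8 to 29.4 in tSema4B unstimulated and 25.7 to 52.1 in tSema4B NE libraries. Of these, Adgre1 and Ptprc had 0 reads throughout, and Cd68 and Lyz2 were too low to be tested. Csf1r rose with NE in both lines (2.43 and 3.00, limma adjusted p = 0.0289 and 0.0119). It stayed low, at 10.1 to 14.4 normalized counts in vector NE and 9.65 to 19.8 in tSema4B NE libraries. Cd14 rose in vector cells (1.29, limma adjusted p = 0.0464), to 28.2 to 36.0 normalized counts. Whether macrophages have a part in the NE results was not tested. The 5 endothelial markers summed to 4.34 to 21.9 normalized counts, with Kdr at 0 reads in all libraries. Replicates of a group are termed technical in the labels, so every p-value measures only the spread between these libraries of 1 line each.

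Divided by exon length, the 10 genes spanned more than an order of magnitude. The median over the 12 libraries was 46.9 normalized counts per kb of exon for Nr1d2, 25.1 for Cry1, 19.4 for Nr1d1, 17.3 for Clock, 12.6 for Arntl, 9.26 for Per1, 8.98 for Cry2, 6.02 for Per3, 4.94 for Dbp and 1.92 for Per2. This order pools the 4 groups and is not that of each one. For instance, the mean of Nr1d1 was above that of Cry1 in unstimulated cells of both lines (25.1 against 20.8 and 20.3 against 18.4). That of Per3 was below that of Dbp in vector NE cells (3.28 against 4.51) and about level with it in tSema4B NE cells (5.48 against 5.50). In tSema4B NE cells Arntl (15.8) was above Clock (14.1) and Nr1d1 (10.9). Neighbours in the pooled order overlapped in range, for instance Per1 (1.95 to 14.1 per kb) and Cry2 (5.23 to 14.4 per kb), and Nr1d2 had no library below 35.1. Per2 had 1 to 36 reads per library and reached 10 normalized counts in 6 of 12, and Dbp had 6 to 25 reads. The 3 vector unstimulated libraries had 2, 36 and 12 reads of Per2.

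The question put to these genes is whether NE, the tSema4B line, or both shift their level. A gene counts as called where limma, adjusted over all 11998 genes, gave a p of 0.05 or less. NE in vector cells raised 2 of the 10 (Arntl and Cry1) and lowered 1 (Per3), beside 6.82% of all genes raised and 4.78% lowered. NE in tSema4B cells raised 1 (Arntl) and lowered 0, beside 3.68% and 2.58%. In unstimulated cells 0 members were higher and 1 (Per1) was lower in the tSema4B line, beside 5.64% and 7.39%. After NE 1 was higher (Per3) and 1 lower (Nr1d1), beside 9.79% and 11.2%. Before adjustment, 4, 6, 1 and 3 members had a limma p under 0.05 in these comparisons, in the order given, beside 23.9%, 19.9%, 26.1% and 32.9% of all genes, and edgeR and DESeq2 called no member in the directions counted as 0. These are small numbers in every comparison, those with NE included, and for the line comparisons the backgrounds are of the same order. They are read here gene by gene.

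When a change of 1 or more on the log2 scale, in either direction, was asked for as well, Per3 and Cry1 were left in the NE comparison of vector cells (2.63% of all genes passed), Arntl in that of tSema4B cells (2.07%), Per1 between the unstimulated lines (3.82%), and none of the 10 between the lines after NE (5.76%). Groups whose libraries did not overlap were counted as well: 3 members with NE in vector cells against 33.3% of all genes, 5 with NE in tSema4B cells against 20.7%, 2 between unstimulated lines against 29.4%, and 4 between the lines after NE against 37.7%. The median log2 fold change of the 10 members was -0.30, 0.12, -0.30 and -0.05 in these 4 comparisons, beside -0.02, -0.00, -0.00 and -0.01 over all genes tested.

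**Figure D1:**
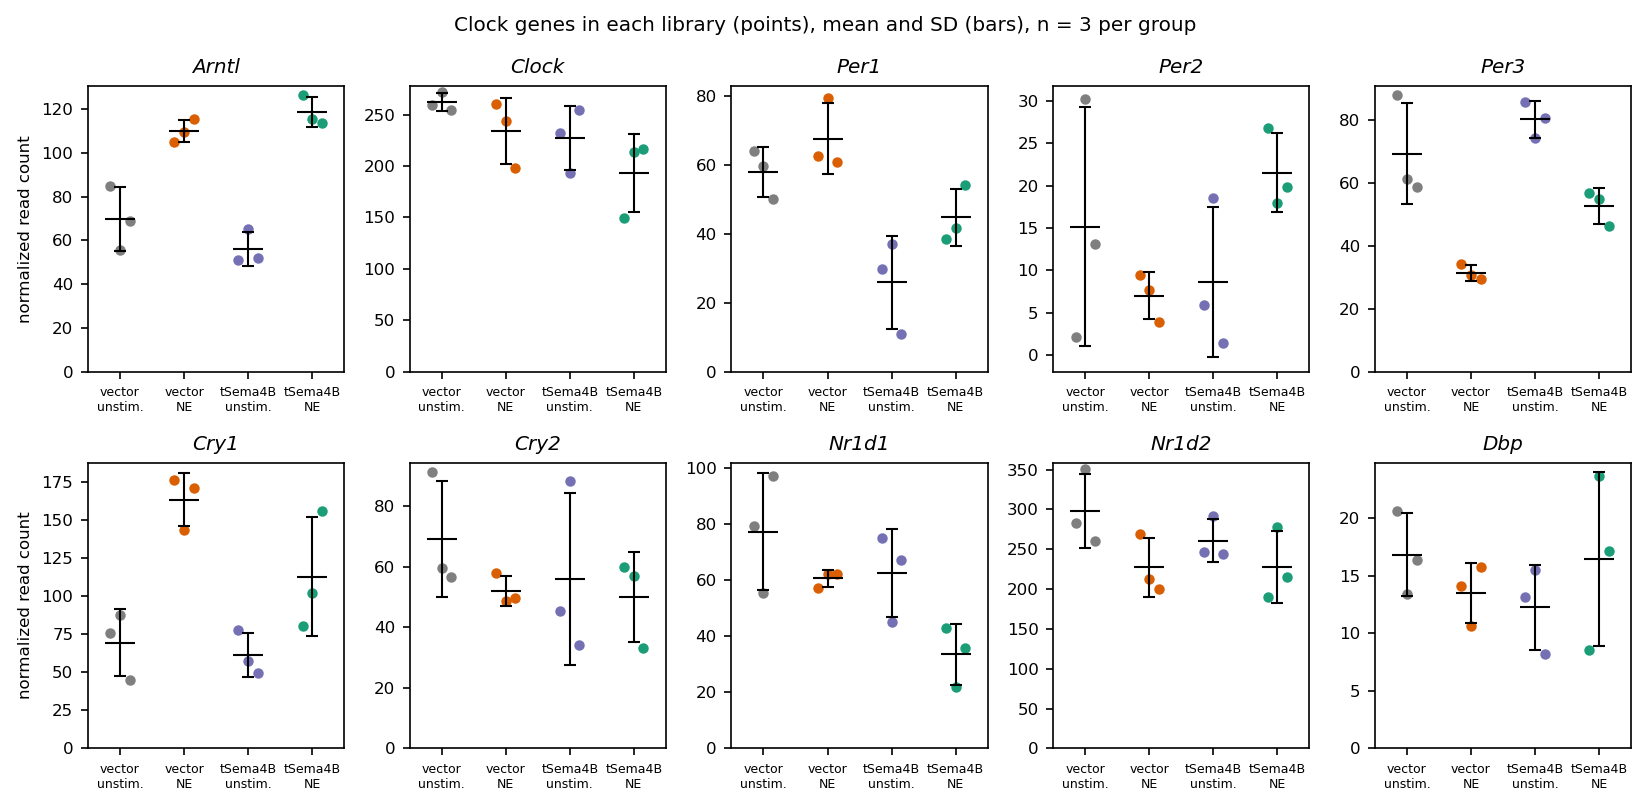
Normalized read count (vertical axis, linear) of each clock gene in the 4 groups. Points are the 3 libraries of a group, and black bars give the mean and SD. Arntl is high after NE in both lines, Cry1 is highest and Per3 lowest in vector NE cells, and Per1 is lowest in tSema4B unstimulated cells. The lower bar of Per2 in tSema4B unstimulated cells falls below 0 because its SD exceeds its mean.

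Arntl encodes the activator that pairs with CLOCK and is the member whose NE response was called in both lines. Its normalized counts were 84.7, 55.5 and 68.6 in vector unstimulated and 105, 109.7 and 115 in vector NE libraries. In the tSema4B line they were 51.2, 65.0 and 52.0 unstimulated and 127, 116 and 114 after NE. All 6 NE libraries lay above all 6 unstimulated libraries. The log2 fold change was 0.67 (SE 0.21, limma adjusted p = 0.037) in vector cells and 1.07 (SE 0.21, limma adjusted p = 0.00212) in tSema4B cells, that is 1.59-fold and 2.10-fold.

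The rise of Arntl in tSema4B cells was called in all 24 alternative analyses, whereas that in vector cells kept its direction but was called in 15 of 24 (adjusted p 0.0159 to 0.174). Leaving out vector unstimulated replicate 2 or 3, or any 1 of the 3 vector NE libraries, ended the call. The difference between the 2 responses was 0.40 (95% interval -0.20 to 1.01, limma adjusted p = 0.69). Between the lines Arntl differed by -0.29 (-0.72 to 0.13) on the log2 scale unstimulated and by 0.11 (-0.32 to 0.54) after NE, neither of which passed the test.

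The gene lies on chr7:113207465-113314126 (GRCm38, plus strand). The ROR element TAGGTCA, through which REV-ERB receptors act, was not in the 250 bases before either of its RefSeq starts, but occurs just after 1 of them, in the first 50 transcribed bases. That site is shown because Arntl is the textbook target of the receptors described below. The capitals mark the element, 31 to 37 bases after the start, on chr7:113207531-113207557 of GRCm38.p6, plus strand.
Arntl: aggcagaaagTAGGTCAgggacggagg

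Clock (chr5:76209868-76304792, minus strand), which encodes the partner of ARNTL, was not called in any comparison. Its normalized counts were 260, 272 and 255 in vector unstimulated, 260.03, 244 and 198 in vector NE, 232, 193 and 255 in tSema4B unstimulated, and 149, 214 and 217 in tSema4B NE libraries. The change with NE was -0.17 (95% interval -0.51 to 0.16) in vector and -0.24 (-0.57 to 0.09) in tSema4B cells. Changes of the size seen for Arntl in tSema4B cells lie outside both intervals. The unstimulated lines did not overlap, but only because 254.65 in the highest tSema4B library fell short of 254.86 in the lowest vector library.

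Of the period genes, whose proteins close the loop as repressors, Per3 changed with NE and Per1 differed between the lines. Per3 (chr4:151003652-151044665, minus strand) was at 88.0, 61.4 and 58.8 normalized counts in vector unstimulated cells and 34.3, 30.8 and 29.5 after NE. In tSema4B cells it was at 85.8, 74.3 and 80.8 unstimulated and 56.8, 54.9 and 46.2 after NE. In each line the NE libraries all lay below the unstimulated ones, and the tSema4B NE libraries all lay above the vector NE libraries.

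The fall in vector cells was -1.09 on the log2 scale (SE 0.24, limma adjusted p = 0.00498), a level 2.13-fold lower, and it was called in all 24 alternatives. In tSema4B cells the change was -0.60 (95% interval -1.11 to -0.09, limma adjusted p = 0.159) and it was not called in any alternative. The 2 responses differed by 0.49 (-0.23 to 1.21, limma adjusted p = 0.675), so a difference between them was not shown. After NE, Per3 was 1.65-fold higher in tSema4B than in vector cells (log2 fold change 0.72, SE 0.24, limma adjusted p = 0.0396), a call that was lost in 9 of 24 alternatives (adjusted p 0.0212 to 0.117), among them without any 1 of the vector NE libraries and without tSema4B NE replicate 1 or 2.

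The 250 bases before the RefSeq start of Per3 (chr4:151044666-151044915, GRCm38.p6, minus strand) are shown because they are the only ones among the windows searched to hold a D-box, the element of DBP and E4BP4. The capitals mark the D-box TTATGTAA, which occurs at 205 to 198 and at 158 to 151 bases before the start. Of all 32851 promoters in the RefSeq table, 0.931% held a D-box (TTATGTAA or TTACGTAA, either strand) in a window of this length.
Per3: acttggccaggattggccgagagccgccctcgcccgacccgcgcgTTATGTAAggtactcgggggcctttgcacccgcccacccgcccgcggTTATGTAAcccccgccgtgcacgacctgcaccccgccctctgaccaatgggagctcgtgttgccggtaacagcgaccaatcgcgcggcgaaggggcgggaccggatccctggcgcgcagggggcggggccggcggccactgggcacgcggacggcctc

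Per1 (chr11:69095217-69109960, plus strand), known to be induced by cAMP and by glucocorticoids, was lower in the tSema4B line. Unstimulated vector libraries held 64.1, 59.7 and 50.1 normalized counts and unstimulated tSema4B libraries 29.8, 37.1 and 11.0. After NE the vector libraries held 62.5, 79.4 and 60.9 and the tSema4B libraries 38.6, 41.7 and 54.2. In both conditions the groups did not overlap, with vector the higher. Unstimulated, the log2 fold change was -1.28 (SE 0.34, limma adjusted p = 0.0147), which is 2.43-fold lower in tSema4B cells. The lowest library weighs on this value: without tSema4B unstimulated replicate 3 it was -0.78 (limma adjusted p = 0.084), and the call was also lost without vector unstimulated replicate 1 (adjusted p = 0.0643) or 2 (adjusted p = 0.0547), while it held in the other 21 alternatives.

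After NE the lines differed by -0.59 (95% interval -1.30 to 0.13, limma adjusted p = 0.248) for Per1. With NE, Per1 changed by 0.22 (-0.50 to 0.93) in vector cells and by 0.91 (0.20 to 1.63, limma adjusted p = 0.126) in tSema4B cells, neither of which passed. The change in tSema4B cells was called only without tSema4B unstimulated replicate 2 (1.24, limma adjusted p = 0.045). Replicate 3 of that group, the lowest at 11.0 normalized counts, weighs on this value too. The promoter before the upstream of its 2 RefSeq starts (chr11:69098699-69098947, GRCm38.p6, plus strand) is shown for its E-box CACGTG, the element of ARNTL and CLOCK, and for TGACG, the shorter form of the cAMP response element (CRE), both in capitals.
Per1: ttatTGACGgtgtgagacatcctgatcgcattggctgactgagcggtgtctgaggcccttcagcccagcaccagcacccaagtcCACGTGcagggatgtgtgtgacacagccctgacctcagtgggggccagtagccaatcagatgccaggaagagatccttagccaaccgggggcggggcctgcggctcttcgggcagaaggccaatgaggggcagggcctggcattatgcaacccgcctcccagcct

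Per2 (chr1:91415982-91459324, minus strand) was low and varied between replicates, at 2.17, 30.3 and 13.1 normalized counts in vector unstimulated, 9.41, 7.71 and 3.93 in vector NE, 5.96, 18.6 and 1.37 in tSema4B unstimulated, and 26.8, 18.0 and 19.8 in tSema4B NE libraries. After NE every tSema4B library exceeded every vector library, with a log2 difference of 1.54 (95% interval -0.03 to 3.11, limma adjusted p = 0.16), which was called in 2 of 23 alternatives. Its interaction of tSema4B and NE, 2.25 (0.03 to 4.46), was the only one among the members under 0.05 before adjustment (limma adjusted p = 0.48).

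**Figure D2:**
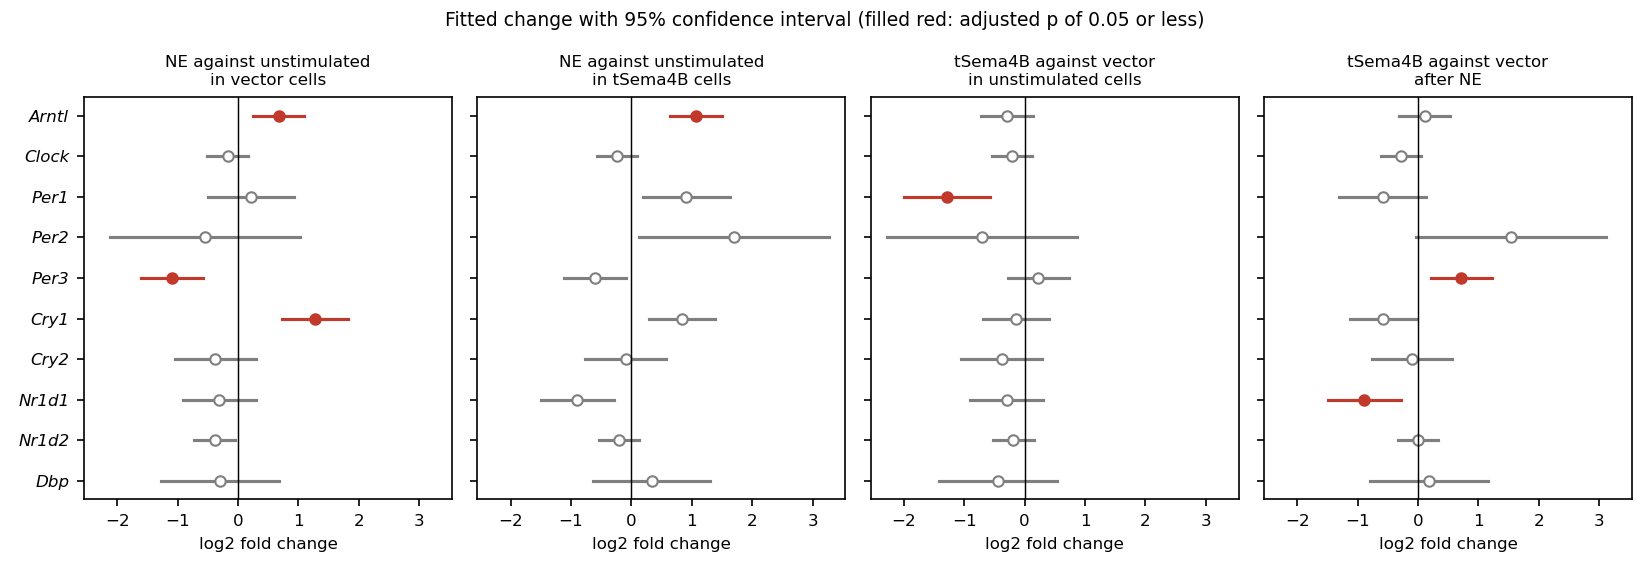
Log2 fold change (horizontal axis) of each clock gene in the 4 comparisons, from limma, with its 95% confidence interval as a line. Filled red points passed an adjusted p of 0.05 and open grey points did not. The widest intervals are those of Per2 and Dbp, the genes with the fewest reads.

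The cryptochromes, the strongest repressors of ARNTL and CLOCK, differed in their calls, since only Cry1 was called, with NE in vector cells. Cry1 (chr10:85131700-85185064, minus strand) was at 76.0, 87.4 and 44.7 normalized counts in vector unstimulated and 176, 143 and 171 in vector NE libraries. In tSema4B cells it was at 77.5, 57.2 and 49.3 unstimulated and 80.4, 102 and 156 after NE. The NE libraries exceeded the unstimulated ones in both lines, by a wide margin in vector cells and by a narrow one in tSema4B cells. The rise in vector cells was 2.42-fold (log2 fold change 1.27, SE 0.26, limma adjusted p = 0.0027) and was called in all 24 alternatives.

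In tSema4B cells the change of Cry1 was 0.84 (95% interval 0.29 to 1.39), just short of a call (limma adjusted p = 0.0612) and called in 5 of 24 alternatives, among them DESeq2 on the recovered reads (adjusted p = 0.0379) and the analysis without tSema4B NE replicate 1 (adjusted p = 0.0265). The 2 responses differed by -0.43 (-1.21 to 0.34, limma adjusted p = 0.747). After NE the tSema4B line was at -0.58 (-1.13 to -0.03, limma adjusted p = 0.128) relative to vector, called only without tSema4B NE replicate 3 (-0.84, adjusted p = 0.0384). The value depends on single libraries in both directions, since replicate 3 is the highest of that group (156) and replicate 1 the lowest (80.4).

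The stretch before the RefSeq start of Cry1 (chr10:85185065-85185304, GRCm38.p6, minus strand) is shown without the 10 bases that an annotated exon covers. It was chosen because Cry1 had the largest called rise of the 10 members with NE in vector cells, while in tSema4B cells Arntl rose and Cry1 was not called. The capitals mark the E-box CACGTG and, upstream of it, the E-prime box CACGTT read on the other strand.
Cry1: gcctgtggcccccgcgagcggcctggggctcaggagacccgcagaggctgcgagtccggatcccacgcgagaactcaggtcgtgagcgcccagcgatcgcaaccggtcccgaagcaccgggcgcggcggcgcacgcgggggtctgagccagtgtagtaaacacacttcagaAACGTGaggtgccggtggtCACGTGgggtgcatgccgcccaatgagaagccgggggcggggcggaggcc

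Cry2 (chr2:92403646-92434043, minus strand) was at 91.2, 59.7 and 56.6 normalized counts in vector unstimulated, 57.8, 48.6 and 49.8 in vector NE, 45.3, 88.2 and 34.2 in tSema4B unstimulated, and 60.1, 56.8 and 33.0 in tSema4B NE libraries. It was not called in any comparison, and no analysis tried called it. Its change with NE in vector cells was -0.37 (95% interval -1.04 to 0.29), an interval that does not contain the rise measured for Cry1. Within a library, the difference Cry1 minus Cry2 on the log2(normalized count + 1) scale, not adjusted for length, was 1.63 ± 0.11 (mean ± SD, n = 3) in vector NE cells and -0.02 ± 0.49 in vector unstimulated cells. In tSema4B cells it was 1.15 ± 0.94 after NE and 0.22 ± 0.73 unstimulated, with overlapping libraries.

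The REV-ERB receptors, repressors of Arntl and Cry1, were both expressed, and only Nr1d1 was called. Nr1d1 (chr11:98767932-98775333, minus strand) was at 79.3, 55.5 and 96.9 normalized counts in vector unstimulated, 57.1, 62.23 and 62.2 in vector NE, 75.1, 44.9 and 67.1 in tSema4B unstimulated, and 42.9, 21.8 and 35.7 in tSema4B NE libraries. The tSema4B NE libraries were the lowest of all 12. After NE the gene was 1.85-fold lower in tSema4B than in vector cells (log2 fold change -0.89, SE 0.29, limma adjusted p = 0.0335). That call was lost in 6 of 24 alternatives (adjusted p 0.00757 to 0.161), among them without any 1 of the vector NE libraries or without tSema4B NE replicate 2, where the value was -0.62.

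With NE, Nr1d1 changed by -0.90 (95% interval -1.50 to -0.29, limma adjusted p = 0.0708) in tSema4B cells, called in 4 of 24 alternatives, and by -0.31 (-0.92 to 0.29) in vector cells. The 2 responses differed by -0.59 (-1.44 to 0.27, limma adjusted p = 0.674). Nr1d1 shares 263 exon bases, 8.55% of its exons, with Thra on the opposite strand, and the library kit keeps no strand, so reads there cannot be told apart. Thra, a thyroid hormone receptor gene, averaged 98.0, 57.3, 84.9 and 65.1 normalized counts in vector unstimulated, vector NE, tSema4B unstimulated and tSema4B NE cells. It fell with NE in vector cells (log2 fold change -0.76, SE 0.21, limma adjusted p = 0.0186) and differed by 0.18 (-0.25 to 0.61) between the lines after NE, the comparison in which Nr1d1 was lower.

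The 250 bases before the RefSeq start of Nr1d1 (chr11:98775378-98775627, GRCm38.p6, minus strand) are shown because the gene is an E-box target and the only receptor called. The capitals mark an E-prime box, CACGTT on the other strand.
Nr1d1: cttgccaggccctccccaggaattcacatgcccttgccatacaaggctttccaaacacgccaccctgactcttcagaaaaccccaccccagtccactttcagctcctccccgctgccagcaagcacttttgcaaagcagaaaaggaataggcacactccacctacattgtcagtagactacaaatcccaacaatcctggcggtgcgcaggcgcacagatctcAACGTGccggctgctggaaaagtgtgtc

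Nr1d2 (chr14:18204054-18239127, minus strand) was at 283, 351 and 260.3 normalized counts in vector unstimulated, 269, 213 and 200.3 in vector NE, 247, 292 and 244 in tSema4B unstimulated, and 189.8, 278 and 215 in tSema4B NE libraries. It was not called, with a change with NE of -0.39 (95% interval -0.72 to -0.05, limma adjusted p = 0.134) in vector cells and -0.21 (-0.54 to 0.13) in tSema4B cells. After NE the lines differed by -0.00 (-0.34 to 0.33), an interval that does not reach the difference measured for Nr1d1. Within a library, the difference Nr1d2 minus Nr1d1 on the log2(normalized count + 1) scale, not adjusted for length, was 1.88 ± 0.29 in vector NE and 2.77 ± 0.77 in tSema4B NE cells, groups whose libraries overlap.

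Dbp (chr7:45705088-45710203, plus strand), a D-box activator and a common readout of ARNTL and CLOCK activity, was low and did not pass in any comparison. Its normalized counts were 20.6, 13.5 and 16.3 in vector unstimulated, 14.1, 10.7 and 15.7 in vector NE, 13.1, 15.5 and 8.21 in tSema4B unstimulated, and 8.58, 23.7 and 17.2 in tSema4B NE libraries. The groups overlapped throughout, and the intervals were wide, -1.27 to 0.68 with NE in vector cells and -0.64 to 1.31 in tSema4B cells. Dbp shares 539 exon bases, 18.0% of its exons, with Sphk2 on the opposite strand, which had 56.1 to 87.1 normalized counts over its own full length.

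Differences between members within a library do not depend on the scaling between libraries, apart from the pseudocount, and since they are not adjusted for length only their change between groups is read. Arntl minus Per3 on the log2(normalized count + 1) scale was 0.01 ± 0.19 (mean ± SD, n = 3) in vector unstimulated and 1.77 ± 0.17 in vector NE cells, and -0.52 ± 0.29 and 1.16 ± 0.11 in the tSema4B line. Cry1 minus Per3 was -0.03 ± 0.47 and 2.34 ± 0.16 in the vector line and -0.41 ± 0.28 and 1.04 ± 0.63 in the tSema4B line. For both pairs the NE libraries of a line lay above its unstimulated libraries, and the tSema4B NE libraries lay below the vector NE libraries. The lowest tSema4B NE library for Cry1 minus Per3, at 0.49, was just under the highest vector unstimulated library, at 0.50. Arntl minus Nr1d1 was ordered otherwise, at -0.13 ± 0.32 and 0.85 ± 0.04 in the vector line and -0.13 ± 0.57 and 1.85 ± 0.44 in the tSema4B line, the highest values being those of tSema4B NE. These pairs were chosen with the values known and carry no test.

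**Figure D3:**
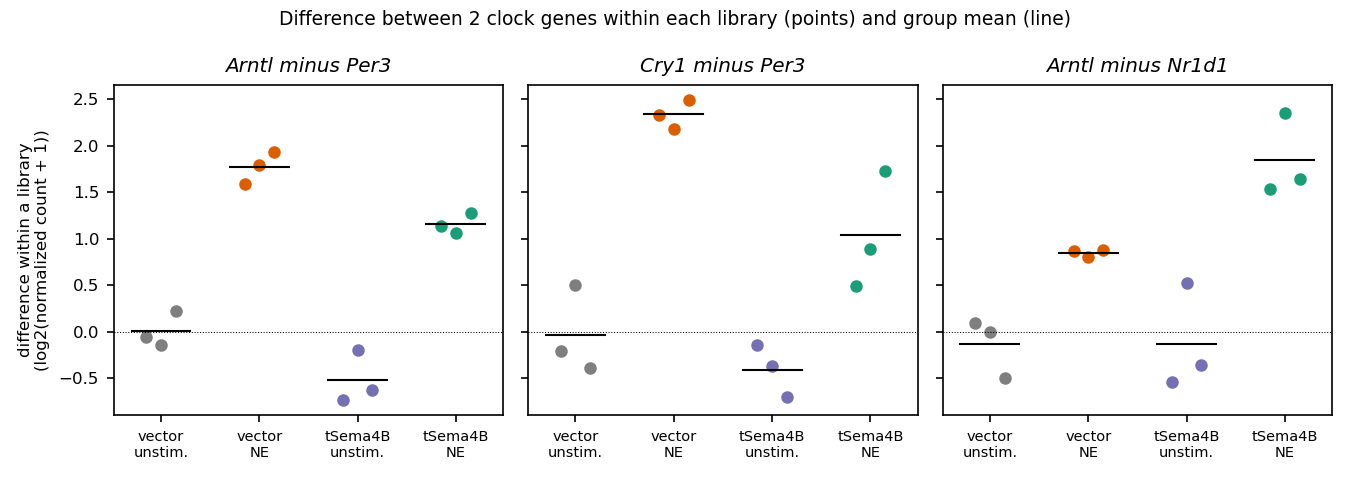
Difference between a pair of clock genes within each library on the log2(normalized count + 1) scale (vertical axis), with points for libraries and a line for the group mean. The mean of Arntl minus Per3 goes from 0.01 to 1.77 with NE in the vector line and from -0.52 to 1.16 in the tSema4B line, and only such changes between groups are read, since the values are not adjusted for length.

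Across the 12 libraries the members did not form a single pattern. On the log2 scale Per3 and Cry1 had the most opposed profiles (Pearson r = -0.81) and Arntl and Per3 came next (r = -0.70), while Arntl and Cry1 had r = 0.69. With the group means taken out these were 0.06, 0.43 and -0.28, so all 3 changed sign, and the values over the 12 libraries describe differences between the 4 groups. Likeness to other genes was sought among the 11998 genes tested, without the members, over the same 12 libraries. Most like Arntl were Rwdd1 (r = 0.97), Ramp3 (r = 0.96) and Krt13 (r = 0.95). Those most like Per3 were Fam171b (0.97), Gsn (0.96) and Mapk3 (0.95), and those most like Cry1 were Nudcd1 (0.94) and Bhlhe40 (0.94). Bhlhe40 encodes DEC1, itself a repressor of ARNTL and CLOCK.

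A wider list of 30 clock-related genes, of which 27 were tested, was counted in the same comparisons. With NE in vector cells 2 rose (Nfil3 and Bhlhe40) and 1 fell (Nampt), and in tSema4B cells 3 rose (Bhlhe40, Nfil3 and Csnk1d) and 1 fell (Tef). These counts stand beside 6.82% of all genes raised and 4.78% lowered in vector cells, to which those of the vector line are near, and 3.68% and 2.58% in tSema4B cells. The median change of the 27 was -0.06 and 0.09, beside -0.02 and -0.00 over all genes. Npas2, Hlf and Fbxl21 were too low to be tested.

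Bhlhe40 was at 120 to 153 normalized counts in vector unstimulated and 228 to 277 in vector NE libraries, and at 109.5 to 129 and 170.4 to 269.5 in the tSema4B line. It rose by 0.91 (SE 0.18, limma adjusted p = 0.00157) and 0.77 (SE 0.18, limma adjusted p = 0.00862) on the log2 scale. Nfil3, which encodes the D-box repressor E4BP4, went from 82.5 to 110.1 up to 231 to 255 normalized counts in vector cells (log2 fold change 1.38, SE 0.19, limma adjusted p = 4.11e-05) and from 50.1 to 78.0 up to 101.3 to 107 in tSema4B cells (0.68, SE 0.19, limma adjusted p = 0.0345). After NE Nfil3 differed by -1.22 and was lower in the tSema4B line (SE 0.19, limma adjusted p = 7.39e-05). The responses of the 2 lines differed by -0.70 (95% interval -1.26 to -0.14, limma adjusted p = 0.353).

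Nampt, the enzyme of NAD salvage that the clock drives, was at 1104 to 1191 normalized counts in vector unstimulated and 704 to 775 in vector NE libraries, a change of -0.64 (SE 0.11, limma adjusted p = 0.000348), and at 446 to 623 and 466 to 499 in the tSema4B line. It was lower in the tSema4B line in both conditions (log2 fold change -1.10 and -0.60, limma adjusted p = 1.5e-07 and 0.000321). Tef, a D-box activator like Dbp, was at 105 to 155 normalized counts in tSema4B unstimulated and 54.9 to 72.7 in tSema4B NE libraries and fell there (-0.88, SE 0.23, limma adjusted p = 0.0221). Csnk1d, a kinase that marks period proteins for degradation, rose in tSema4B cells (0.50, SE 0.12, limma adjusted p = 0.014) and was higher than in vector cells after NE (0.41, limma adjusted p = 0.0186).

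Between the lines after NE, 2 of the 27 were higher (Btrc and Csnk1d) and 3 lower (Nfil3, Usp7 and Nampt) in tSema4B cells, beside 9.79% and 11.2% of all genes. Btrc, part of a ubiquitin ligase for period proteins, was at 61.1 to 80.02 in vector NE and 126 to 152 in tSema4B NE libraries (0.97, SE 0.21, limma adjusted p = 0.0024). For the interaction, 0 of the 10 members and 0 of the 27 wider genes were called by limma, beside 0.025% (3) of all 11998 genes, and edgeR and DESeq2 also called 0 members.

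**Figure D4:**
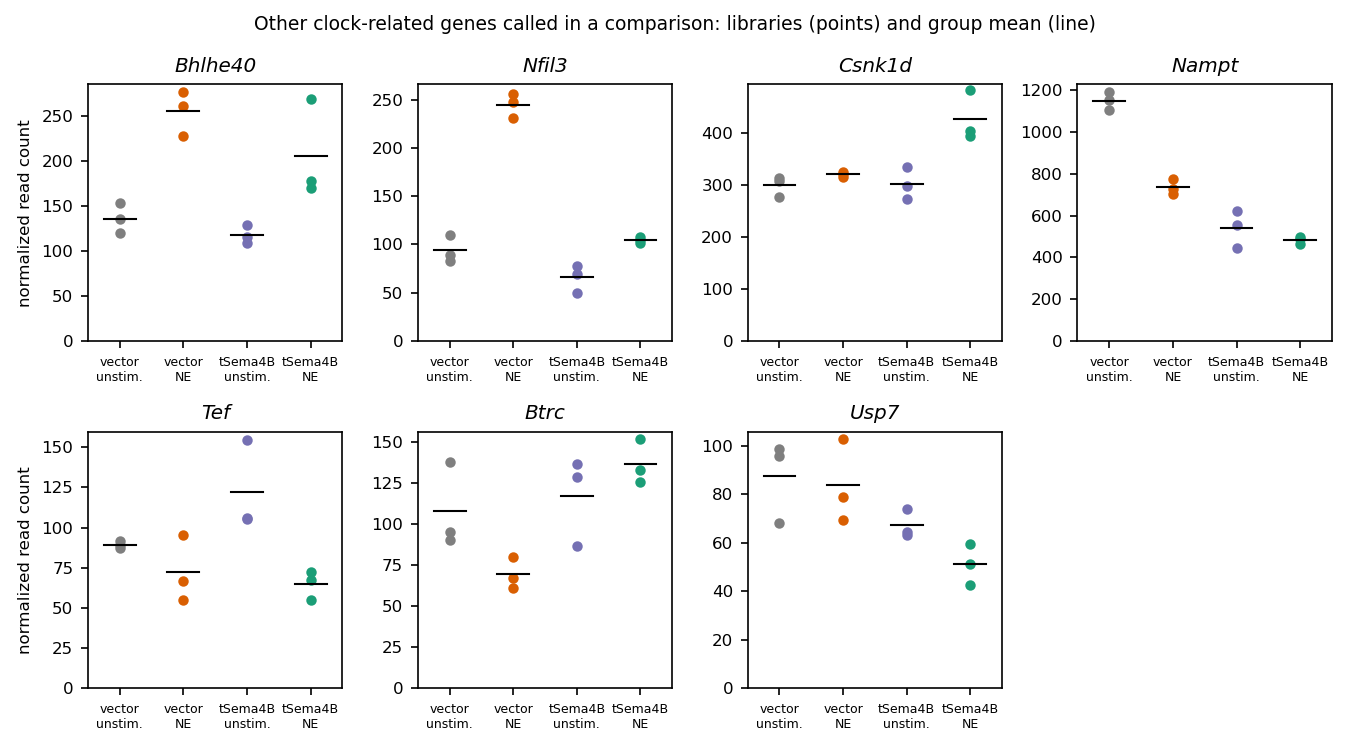
Normalized read count (vertical axis, linear) of 7 other clock-related genes called in a comparison of the 4 groups. Points are libraries and lines are group means. Nfil3 is at 231 or more in vector NE libraries and at 110.1 or less in all others, and Nampt is highest in vector unstimulated libraries.

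Genes that report on the signals that reach the clock were counted in the same way. Of 12 tested cAMP-responsive genes, NE raised 5 and lowered 1 in vector cells and raised 2 and lowered 1 in tSema4B cells, beside 6.82% and 4.78% of all genes in vector and 3.68% and 2.58% in tSema4B cells. The largest of these rises in vector cells was that of Pde4d, a cAMP phosphodiesterase (1.81, limma adjusted p = 0.000423), which in tSema4B cells was at 0.90 (limma adjusted p = 0.0869). Nr4a1, an immediate-early nuclear receptor, rose by 1.71 in vector cells (limma adjusted p = 0.00338), was at -0.17 in tSema4B cells (limma adjusted p = 0.85), and the responses differed by -1.88 (95% interval -2.95 to -0.81, limma adjusted p = 0.181). Crem, a cAMP-induced repressor, rose by 1.69 (SE 0.20, limma adjusted p = 6.62e-06) and by 1.40 (SE 0.20, limma adjusted p = 0.00012), and Junb, an AP-1 subunit, by 1.59 and 1.24 (SE 0.14 each, limma adjusted p = 8.27e-08 and 2.93e-06). Egr1, an immediate-early factor, changed by -0.69 and -0.49 (SE 0.11 each, limma adjusted p = 0.000213 and 0.00786). Of 12 glucocorticoid-responsive genes, 5 rose with NE in each line, including Mt2 and Mt1, metallothioneins with other inducers too, and Cebpd, a C/EBP factor. With NE 0 fell in vector cells and 1, Sgk1, in tSema4B cells, to be read beside the same shares of all genes. Not called with NE in either line were Fkbp5 (0.09 in vector and -0.01 in tSema4B cells), Tsc22d3 (-0.21 and 0.11) and Zbtb16 (-0.03 and -0.11). The same holds for Klf9 (0.13 and 0.09) and Klf15 (-0.08 and 0.27). Between the unstimulated lines, where Per1 was lower, 3 of these 12 were higher and 3 lower in tSema4B cells, and of the 12 cAMP-responsive genes 2 were higher (Sik1, a kinase induced by cAMP, by 1.33, and Egr1 by 0.68) and 0 lower, beside 5.64% and 7.39% of all genes. After NE 1 of the cAMP-responsive genes was higher (Egr1) and 3 were lower (Nr4a1, Pde4d and Junb) in tSema4B cells, and 1 of the glucocorticoid-responsive genes was higher and 4 were lower, beside 9.79% and 11.2%.

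The promoters were searched on both strands in the 250 bases before each RefSeq start, for 13 starts of 9 members, as a description of letters and not of binding. Per2 had no entry. The E-box CACGTG was found for Cry1 and Per1 and in 6.02% of all 32851 promoters, and the E-prime box CACGTT for Cry1, Cry2 and Nr1d1 and in 3.85%. TGACG was found for Cry1 (in the 10 bases not shown), Cry2 and both starts of Per1 and in 17.8% of all promoters, and the full CRE TGACGTCA, which holds TGACG on each strand, for no member and in 1.55%. The ROR element TAGGTCA was in none of these windows and in 2.23% of all promoters, and in 2.61% when the 50 bases after the start, with the Arntl site above, were added. Of the members that rose with NE in vector cells, Cry1 held 3 of these motifs within the 250 bases and Arntl held 0. The share of all promoters that hold as many was not counted.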

How the data were processed

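RNA from 12 libraries in 4 groups of 3 was sequenced by the authors after SMART-Seq2 amplification and Nextera XT library preparation. Per the labels and the study's methods, they aligned the reads with STAR 2.7.9a to the mouse genome (mm10, GRCm38.p4), used htseq-count for gene counts, and scaled these by DESeq2 size factors. The signal the authors deposited is thus a normalized count per gene. The annotation, strandedness and handling of multimapping reads are not given in the sources used here. In every library 100% of values were whole multiples of 1 read within 0.01, so whole reads were recovered.

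Values were tested as log2(normalized count + 1) with limma 3.58.1 in R 4.3.3, as 1 model of 4 groups with a variance trend, over the 11998 genes that reached 10 normalized counts in 3 or more libraries. P-values are two-sided and were adjusted by Benjamini-Hochberg over these genes. Because of the added 1, fold changes of low genes are understated. The scripts were tested on simulated data. DESeq2 1.42.0, the tool of the study, and edgeR 4.0.16 were run on the recovered reads as alternatives. Other alternatives were pseudocounts of 0.5 and 10, no filter or one of 50, 3 other scalings, the added fold threshold, only the 6 libraries compared, a replicate block, each library left out, and reads thinned to the shallowest library, which was chosen after the data were seen. The named genes were all 10 members, genes whose exons overlap them, up to 3 most alike in pattern for Arntl, Per3 and Cry1, and up to 3 called genes in each direction of the wider clock list, with the leading ones of the signal lists. Some genes that this rule picked are not reported here. Members and lists were chosen with earlier results of these data known. Gene positions and exon overlaps are from GENCODE M21 on GRCm38, and promoters from RefSeq on GRCm38.p6. No 2 libraries of a group were alike within sampling noise.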

Additional observations from a re-analysis of the deposited data

How the results depend on the processing

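Of the 7 member calls, 3 were made in every alternative (Per3 and Cry1 with NE in vector cells, Arntl with NE in tSema4B cells) and all 7 kept their sign. Of the 43 uncalled member tests, 38 were called in no alternative. The number of members called was 1 with NE in tSema4B cells and became 2 with a filter of 50, with DESeq2 and with thinned reads, and 1 to 3 with a library left out. Between unstimulated lines it was 1, and 0 to 1 with a library left out. After NE it was 2 between the lines and became 1 with a pseudocount of 10, 1 when rescaled to the same total, 1 when rescaled over nuclear genes, 0 with no filter and 0 with the fold threshold, 3 with thinned reads (with Per2), and 0 to 3 with a library left out. The cause of these shifts was not tested.

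Replicate numbers did not pair the samples (correlation of deviations -0.047 to 0.0282 over 18 pairs, 0 over 0.1). With the replicate block, members called with NE numbered 2 instead of 3 in vector cells (without Arntl, adjusted p = 0.0513) and 2 instead of 1 in tSema4B cells (with Nr1d1, adjusted p = 0.0499), and all genes called in vector cells 1323 instead of 1392.

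Over all genes, the fold threshold left 316, 248, 458 and 691 of the 1392, 750, 1564 and 2517 genes called in the 4 comparisons. With NE in vector cells 921 were called without vector unstimulated replicate 1 and 750 without vector NE replicate 3. A fit of only the 6 libraries compared gave 2061 with NE in vector cells and 382 in tSema4B cells. The interaction gave 3 calls, 0 with no filter, 87 with DESeq2 and 1 to 31 with a library left out. Per2 and Dbp had the fewest reads of the members, and what limits their tests was not tested. Every comparison of lines rests on 1 line per construct.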
